A study of Homo sapiens with 6 samples.

Results

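The proteins described here belong to the U4/U6.U5 tri-snRNP, the preassembled particle that brings the U4, U5 and U6 small nuclear RNAs to a spliceosome already marked by U1 and U2. They were followed through 9 transcripts, 1 named transcript for each of 9 genes, among the 203028 transcripts quantified in every library. The members were PRPF8, SNRNP200, EFTUD2, PRPF6 and DDX23 of the U5 particle, PRPF3, PRPF4 and PRPF31 of the U4/U6 particle, and SART1, which joins the tri-snRNP. All 9 transcripts were found by their identifiers, and the list was chosen with earlier results of these data known. HEK293 cells, an established human embryonic kidney line, had received lentiviral shRNA, either a scrambled control (3 libraries) or one directed at PRPF39 (3 libraries), and all were selected in puromycin before polyadenylated RNA was sequenced. PRPF39 is a factor associated with the U1 particle, and the comparison concerns splicing when it is depleted. Whether the replicates were separate transductions is not given in the sources used here, and the p-values can only speak for how far these 6 libraries vary, part of which may be technical.

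In the assembly of a spliceosome, U1 first pairs with the 5' splice site and the tri-snRNP then docks on the complex. The helicase DDX23 releases U1 so that U6 can take over the 5' splice site, and the helicase SNRNP200 later unwinds U4 from U6 so that U6 can enter the catalytic centre. PRPF8 is the large scaffold that cradles that centre, and EFTUD2 is a GTPase bound to it. Inherited defects in PRPF8, PRPF31, PRPF3, PRPF4, PRPF6 and SNRNP200 are known causes of retinitis pigmentosa, and defects in EFTUD2 cause mandibulofacial dysostosis.

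The libraries held from 113747941 to 246491084 estimated counts, and single member transcripts held from 1687 to 182554 reads in a library. On the first principal component of transcripts averaging 5 or more CPM (read counts scaled to library size), all 3 control libraries lay apart from all 3 PRPF39 shRNA libraries, with control replicate 3 farthest out. PRPF39 transcripts were not analysed here, and the depletion was therefore not checked. A member's value is that of the 1 listed transcript and not of its whole gene, because reads shared with other transcripts of that gene are divided between them by the quantifier.

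The data show PRPF6, PRPF31 and PRPF4 higher with PRPF39 shRNA, by 1.36 to 1.40 times in mean TPM, the relative transcript abundance that allows for length. These 3 genes encode the U5 protein that bridges the particles and 2 proteins of U4/U6. The U5 scaffold PRPF8 and its helicase partner SNRNP200 stood at 0.897 and 0.895 times their control means. SART1 and DDX23 lay between, at 1.18 and 1.21 times, PRPF3 was at 1.05 times and EFTUD2 at 1.11 times. None of the 9 passed an adjusted p of 0.05 when all 97571 transcripts were tested together (edgeR's quasi-likelihood test), a test that called 0.904% of those transcripts, 0.443% higher and 0.461% lower. When the 20223 transcripts averaging 5 CPM or more were tested on their own, PRPF6, PRPF31 and PRPF4 were called higher and no member was called lower. That test called 17.7% of its transcripts, 8.55% higher and 9.12% lower.

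**Figure D1:**
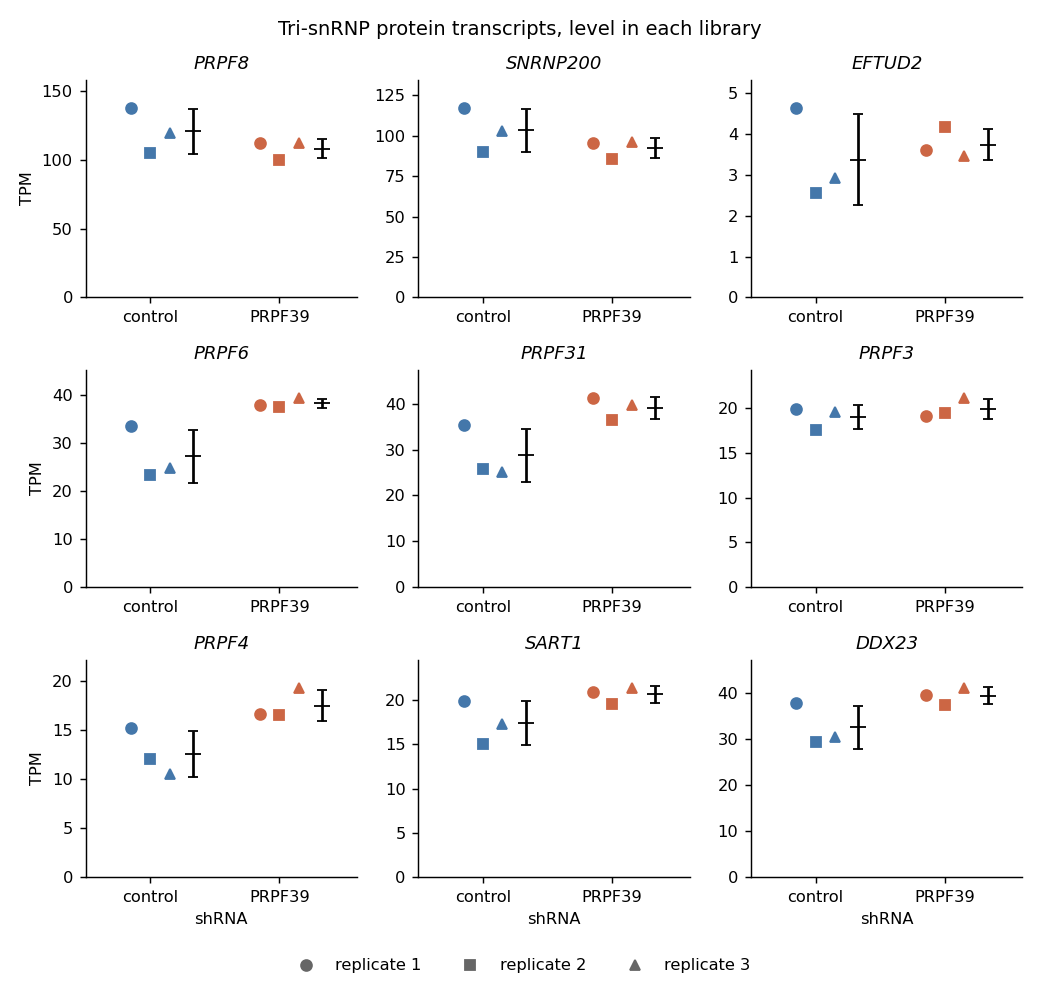
Level in TPM (vertical axes, each from 0) of the 9 tri-snRNP protein transcripts in each library, with control shRNA in blue and PRPF39 shRNA in orange. Symbols give the replicate number and the black bar the mean ± SD of 3 libraries. The PRPF6, PRPF31 and PRPF4 panels have every PRPF39 shRNA library above every control library, and control replicate 1 is the highest control in all 9 panels.

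PRPF6 (ENST00000266079), whose protein links U5 to U4/U6 through a long array of helical repeats, was measured at 33.6, 23.5 and 24.8 TPM in control replicates 1, 2 and 3. With PRPF39 shRNA it stood at 37.9, 37.6 and 39.4 TPM. The lowest PRPF39 shRNA library was thus above the highest control, and the 3 PRPF39 shRNA values were close together while control replicate 1 stood above the other controls. The means were 27.3 ± 5.51 and 38.3 ± 0.97 TPM (SD, n = 3 each). The fitted log2 fold change was 0.48 ± 0.09 (SE), with a 95% interval from 0.27 to 0.69 and an adjusted p of 0.0702 over all transcripts (edgeR). Over transcripts of at least 5 CPM it was 0.43 ± 0.09 (SE, adjusted p = 0.019, edgeR).

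PRPF31 (ENST00000321030) encodes a protein that binds the U4 stem once the small protein SNU13 is in place. It was measured at 35.3, 25.7 and 25.1 TPM in the control replicates and at 41.2, 36.5 and 39.6 TPM in the PRPF39 shRNA replicates. The groups did not overlap, although control replicate 1 came within about 1 TPM of PRPF39 shRNA replicate 2. The log2 fold change was 0.43 ± 0.10 (SE, 95% interval 0.19 to 0.67, adjusted p = 0.116 over all transcripts, edgeR). At 5 CPM or more it was 0.38 ± 0.09 (SE, adjusted p = 0.0296, edgeR).

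PRPF4 (ENST00000374198), a protein with a propeller of WD repeats that pairs with PRPF3 on U4/U6, was the least abundant of the 3. Its controls stood at 15.2, 12.1 and 10.6 TPM and its PRPF39 shRNA libraries at 16.6, 16.5 and 19.3 TPM. The groups were again apart, with control replicate 1 nearest to the other group. The log2 fold change was 0.45 ± 0.12 (SE, 95% interval 0.16 to 0.74, adjusted p = 0.152 over all transcripts, edgeR), and 0.40 ± 0.11 at 5 CPM or more (SE, adjusted p = 0.0426, edgeR).

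Leaving out a library changed which of these 3 were called at 5 CPM or more. All 3 were called without control replicate 1, where 21.2% of transcripts were called, and PRPF6 alone was called without PRPF39 shRNA replicate 1 (adjusted p = 0.0486, edgeR), where 9.82% of transcripts were called. No member was called without control replicate 2, control replicate 3, PRPF39 shRNA replicate 2 or PRPF39 shRNA replicate 3, and these fits called 9.41%, 8.41%, 7% and 4.4% of their transcripts, so this 0 of 9 is near those shares and is not a result about the members. With the replicate number as a block PRPF6 and PRPF31 were called, 2 of 9 where 16.7% of transcripts were called. The adjusted p over these 6 fits ran from 0.00908 to 0.0737 for PRPF6, from 0.0141 to 0.0944 for PRPF31 and from 0.0329 to 0.155 for PRPF4 (edgeR). DESeq2 on all 97571 transcripts called 5 members, all higher, namely PRPF6, PRPF31, PRPF4, SART1 and DDX23. It called 9.25% of all transcripts in both directions and 5.02% of them higher. At 5 CPM or more, a setting added after the data were seen, DESeq2 called 6 members and 27.6% of transcripts. The 6 were PRPF6, PRPF31, PRPF4 and DDX23, which were higher, and PRPF8 and SNRNP200, which were lower (adjusted p = 0.0232 and 0.0188, DESeq2).

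PRPF3 (ENST00000324862), the partner of PRPF4 on U4/U6, did not follow it. Its controls were at 19.9, 17.5 and 19.6 TPM and its PRPF39 shRNA libraries at 19.0, 19.4 and 21.1 TPM. The groups overlapped, although control replicate 2 was below and PRPF39 shRNA replicate 3 above every library of the other group. The log2 fold change was 0.04 ± 0.08 (SE, 95% interval -0.15 to 0.23, adjusted p = 0.868, edgeR), an interval that allows a small difference in either direction. The TPM of PRPF4 divided by that of PRPF3 in the same library was 0.764, 0.689 and 0.541 in the controls. In the PRPF39 shRNA libraries it was 0.872, 0.851 and 0.916, above all controls. PRPF31 relative to PRPF3 moved in the same direction, from a mean ratio of 1.51 ± 0.25 to 1.97 ± 0.16 (SD, n = 3 each). These ratios do not depend on how libraries are scaled to each other. They show unequal change between the genes and not which of the genes changed, and the difference between members was not tested. How often other transcripts were apart relative to PRPF3 was not counted. The ratios largely repeat the levels of PRPF4, PRPF31 and PRPF3 already given.

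SART1 (ENST00000312397) is needed for the tri-snRNP to join the assembling spliceosome. It was measured at 20.0, 15.1 and 17.3 TPM in the controls and at 21.0, 19.6 and 21.4 TPM with PRPF39 shRNA. In TPM the groups overlapped through control replicate 1. The log2 fold change was 0.23 ± 0.07 (SE, 95% interval 0.06 to 0.39, adjusted p = 0.182, edgeR).

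DDX23 (ENST00000308025), the helicase that displaces U1 from the 5' splice site, gave 37.9, 29.3 and 30.5 TPM in the controls and 39.6, 37.4 and 41.1 TPM in the PRPF39 shRNA libraries. Again only control replicate 1 lay within the range of the other group. The log2 fold change was 0.26 ± 0.07 (SE, 95% interval 0.09 to 0.44, adjusted p = 0.158, edgeR). Neither SART1 nor DDX23 passed at 5 CPM or more, where the adjusted p was 0.143 and 0.0759 (edgeR).

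PRPF8 (ENST00000304992) was the most abundant member. It stood at 138, 105 and 120 TPM in the controls and at 113, 100 and 112 TPM with PRPF39 shRNA. The ranges overlapped in TPM, with control replicate 1 highest and PRPF39 shRNA replicate 2 lowest. SNRNP200 (ENST00000323853) was at 117, 90.2 and 103 TPM in the controls and at 95.6, 85.6 and 96.1 TPM with PRPF39 shRNA, in the same order of libraries within the controls.

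The fitted log2 fold changes of the pair were nearly equal, -0.18 ± 0.06 (SE, 95% interval -0.34 to -0.03, adjusted p = 0.24, edgeR) for PRPF8 and -0.18 ± 0.06 (SE, 95% interval -0.34 to -0.03, adjusted p = 0.229, edgeR) for SNRNP200. Neither passed at 5 CPM or more (adjusted p = 0.0924 and 0.0853, edgeR). These 2 are also the longest member transcripts, at 7295 and 7165 bases against 2126 to 4548 bases for the others. The part of transcript length in their direction was not tested. With offsets for each library's effective lengths the values were -0.17 and -0.18. Those lengths differed between libraries by only 1.79% for PRPF8 and 1.99% for SNRNP200. The offsets could therefore change little and do not bear on the part of transcript length.

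PRPF8 and SNRNP200 kept a nearly fixed proportion to each other. The TPM of SNRNP200 was 85.0%, 86.0% and 85.7% of that of PRPF8 in the controls and 84.9%, 85.4% and 85.7% in the PRPF39 shRNA libraries. Over the 6 libraries the proportion therefore stayed between 84.9% and 86.0%, while the TPM of PRPF8 itself ranged from 100.2 to 138. The 2 proteins sit side by side in U5, where PRPF8 controls the helicase. Whether this contact bears on the proportion of the transcripts was not tested, and how common so steady a proportion is was not counted.

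Set against PRPF8 in the same library, 6 of the 8 other members were higher in every PRPF39 shRNA library than in any control. PRPF6 was at 22.5% ± 1.85 of the PRPF8 level in the controls and at 35.4% ± 1.93 with PRPF39 shRNA (SD, n = 3 each). PRPF31 was at 23.7% ± 2.48 and 36.1% ± 0.69, DDX23 at 27.0% ± 1.34 and 36.4% ± 1.08, and PRPF4 at 10.5% ± 1.43 and 16.2% ± 1.26 (SD, n = 3 each). SART1 had the tightest controls, at 14.5%, 14.4% and 14.4%, against 18.6%, 19.5% and 19.1% with PRPF39 shRNA. PRPF3 was at 15.8% ± 1.21 and 18.4% ± 1.29 (SD, n = 3 each), with the groups just apart.

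Such a pattern was common among transcripts. Of all those tested, 19.5% were higher relative to PRPF8 without overlap, and of those with at least 5 CPM 39.9% were. PRPF8 was taken as the reference after its values were seen, and it stood lower with PRPF39 shRNA itself.

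**Figure D2:**
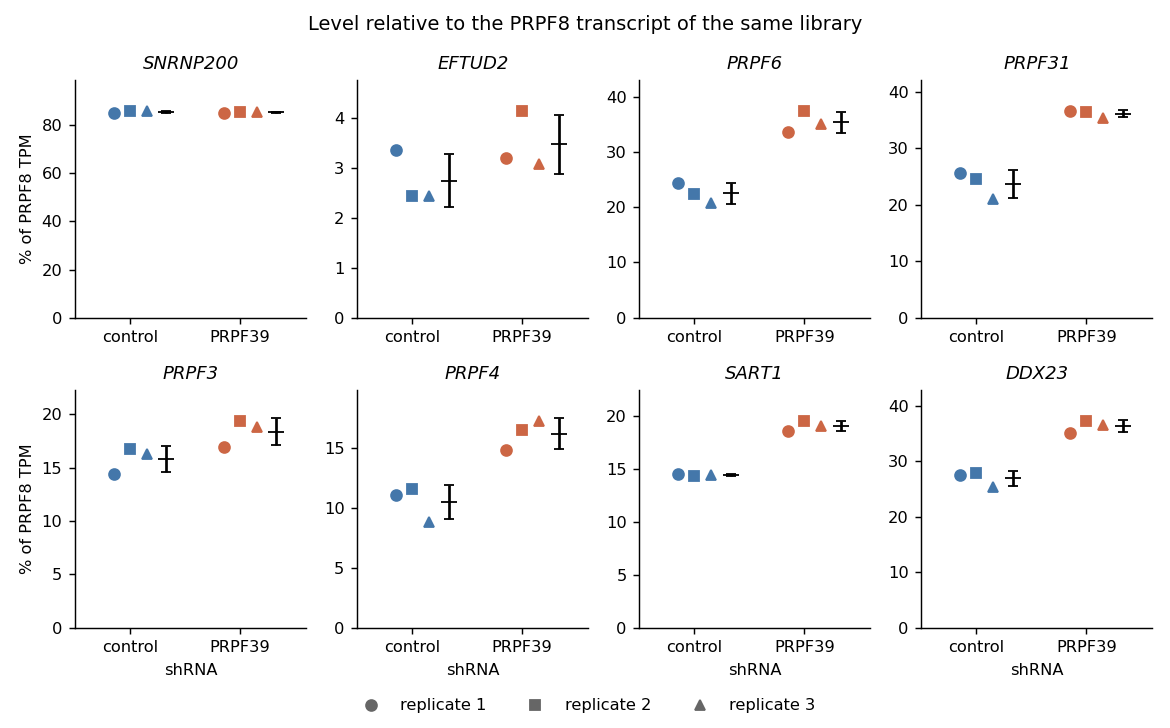
TPM of each other member as a percentage of the TPM of PRPF8 in the same library (vertical axes, each from 0), with control shRNA in blue and PRPF39 shRNA in orange. Symbols give the replicate number and black bars the mean ± SD of 3 libraries. SNRNP200 stays between 84.9% and 86.0%, while PRPF6, PRPF31, PRPF4, SART1, DDX23 and, narrowly, PRPF3 are higher in every PRPF39 shRNA library.

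EFTUD2 (ENST00000426333), the GTPase of U5, was represented by a transcript of low level. It stood at 4.63, 2.55 and 2.93 TPM in the controls and at 3.60, 4.16 and 3.45 TPM with PRPF39 shRNA. Control replicate 1 was the highest of the 6 libraries, and the other 2 controls were the lowest. Its log2 fold change of 0.15 ± 0.19 (SE, 95% interval -0.30 to 0.59, adjusted p = 0.764, edgeR) was the least precise of the 9. It ran from 0.03 without PRPF39 shRNA replicate 2 to 0.35 without control replicate 1. Its transcript was the only member under 10 TPM in every library, and it says nothing of other EFTUD2 transcripts, which were not matched here.

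The order of levels was much the same in both groups. PRPF8 and SNRNP200 came first, and together they made up 61.4% of the summed member TPM in the controls and 52.9% with PRPF39 shRNA. In the controls DDX23 (32.5 ± 4.68 TPM), PRPF31 (28.7 ± 5.75) and PRPF6 (27.3 ± 5.51) followed (SD, n = 3 each), and these neighbours overlapped in range. PRPF3 (19.0 ± 1.29), SART1 (17.4 ± 2.46) and PRPF4 (12.6 ± 2.36) came next, and each overlapped with its neighbour in this order (SD, n = 3 each). Gaps without overlap lay between SNRNP200 and DDX23, between PRPF6 and PRPF3, and between PRPF4 and EFTUD2. With PRPF39 shRNA the same 3 genes DDX23, PRPF31 and PRPF6 stood together at 39.4 ± 1.85, 39.1 ± 2.39 and 38.3 ± 0.97 TPM (SD, n = 3 each), and SART1 and PRPF3 exchanged places with overlapping ranges.

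Summed over all 9 members, the level was 365 ± 51.4 TPM in the controls and 379 ± 19.5 TPM with PRPF39 shRNA (SD, n = 3 each), a difference smaller than the SD of the controls. In CPM the direction was the opposite, with sums of 1990.5 ± 52.6 and 1916 ± 56.0 (SD, n = 3 each). CPM does not allow for length, so the long PRPF8 and SNRNP200 weigh more in that sum, with control means of 835 and 712 CPM. The 3 members of U4/U6 summed to 70.4, 55.3 and 55.2 TPM in the controls and to 76.9, 72.5 and 80.0 TPM with PRPF39 shRNA, without overlap. This sum mostly repeats the levels of PRPF31 and PRPF4 given above, since PRPF3 averaged 19.0 and 19.9 TPM. How often sums of other transcripts were apart was not counted. The 5 members of U5, of which PRPF8 and SNRNP200 are the larger part, summed to 287 ± 40.7 and 282 ± 14.95 TPM (SD, n = 3 each). Without PRPF8 and SNRNP200 the other 7 members summed to 141 ± 22.3 and 178 ± 7.08 TPM (SD, n = 3 each). The 2 members left out are those with a lower mean TPM with PRPF39 shRNA. The direction of this sum was therefore fixed by the choice and is no separate result.

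The scale mattered for how cleanly the groups separated. In TPM the groups did not overlap for 3 of the 9 members, all higher with PRPF39 shRNA, where 11.9% of all tested transcripts were higher without overlap, 11.3% were lower and 23.1% were either. In CPM scaled by TMM factors, the scale on which the test was run, they did not overlap for 7 members. PRPF6, PRPF31, PRPF4, SART1 and DDX23 were then higher and PRPF8 and SNRNP200 lower. On that scale 12.6% of all tested transcripts were higher without overlap, 12.8% were lower and 25.3% were either, and 40.9% of those of at least 5 CPM were either. PRPF8, for example, had 854, 815 and 834 CPM in the controls and 768, 713 and 724 CPM with PRPF39 shRNA. SART1 had 77.7, 73.1 and 75.2 CPM in the controls and 90.1, 87.3 and 87.0 CPM with PRPF39 shRNA. Control replicate 1 was the highest control for all 9 members in TPM and for 8 in CPM, PRPF3 being the exception. The share of all transcripts for which it was the highest control was not counted, so this is no result about the members. Without control replicate 1 the median log2 fold change of the members was 0.30, against 0.23 with all libraries.

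That median of 0.23 compares with a median of -0.02 over all transcripts tested. Of the 9 fitted values 7 were above 0 and 2 below. At 5 CPM or more the medians were 0.18 for the members and 0.00 for all, with 6 above 0 and 3 below. An unadjusted p under 0.05 was reached by 7 of the 9 members in the fit of all transcripts, where 16.1% of transcripts reached it, and by 6 of the 9 at 5 CPM or more, where 35.9% did (edgeR). These 7 were not the 7 above 0. They included PRPF8 and SNRNP200, which were lower, and left out PRPF3 and EFTUD2. At 5 CPM or more SART1 was left out too.

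**Figure D3:**
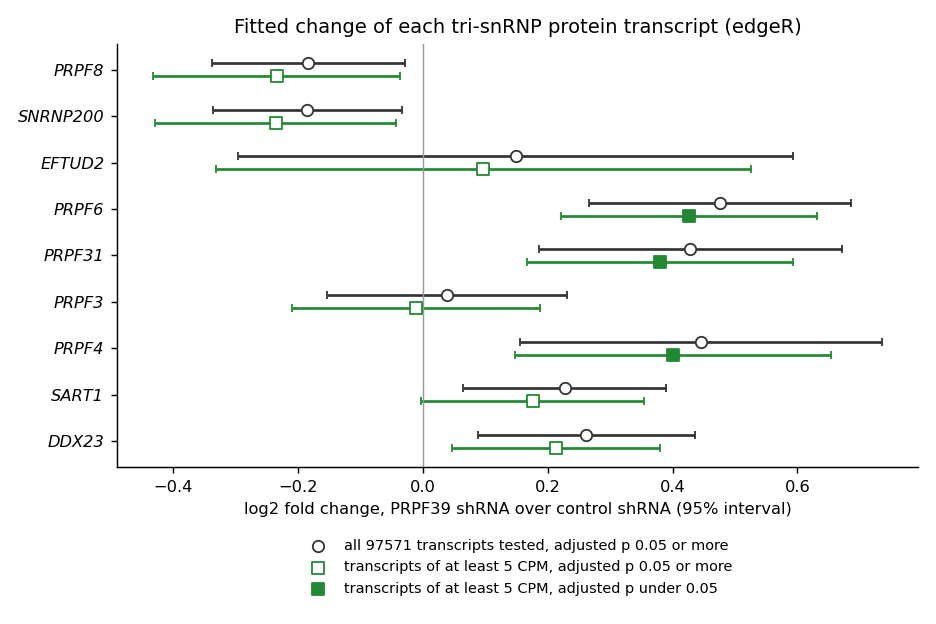
Log2 fold change of PRPF39 shRNA over control shRNA (horizontal axis) with its 95% interval for each member, from the test of all 97571 transcripts (circles) and from the test of transcripts of at least 5 CPM (squares). Filled symbols have an adjusted p under 0.05. PRPF6, PRPF31 and PRPF4 are filled in the second test, and PRPF8 and SNRNP200 lie below 0 in both.

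The spread between replicates differed between members and groups. The SD was smaller relative to the mean in the PRPF39 shRNA libraries than in the controls for all 9 members in TPM. In CPM this held for 7 members, while PRPF8 went from 2.33% of the mean in the controls to 3.99% and SNRNP200 from 1.74% to 3.72%. The share of all transcripts with a smaller spread in the PRPF39 shRNA libraries was not counted. All members share the same libraries, so these counts are no result about the members. In TPM the control SD ran from 6.77% of the mean for PRPF3 to 32.9% for EFTUD2, and with PRPF39 shRNA from 2.53% for PRPF6 to 9.98% for EFTUD2. Effective lengths, by which the quantifier converts reads to TPM, varied between libraries by 1.19% to 3.28% for a given member. They exceeded the annotated length for 8 of the 9 members, reaching 1.57 times that length for SART1. The same ratio was not taken over all transcripts, so its bearing on the TPM of a member was not tested.

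By the rule for likeness, 2 other transcripts among 13979 of at least 10 CPM had the profile over the 6 libraries closest to the mean profile of the members. They were ENST00000418359 (3152 bases, Pearson's r = 0.997) and ENST00000380752 (7347 bases, r = 0.997), described here over 6 libraries that fall into the 2 groups, so the group difference makes up much of the likeness. The first stood at 3.998 ± 1.42 TPM in the controls and 6.91 ± 0.37 with PRPF39 shRNA, and the second at 26.4 ± 5.64 and 35.1 ± 1.12 TPM (SD, n = 3 each). Neither was called over all transcripts (adjusted p = 0.135 and 0.126, edgeR), and no table used here names their genes. The members themselves had no single profile. In log2 CPM, PRPF8 correlated at r = 0.998 with SNRNP200 but at -0.844 with PRPF6 (Pearson). Likeness to the mean profile is therefore not likeness to each member.

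The genes are scattered over the genome, in RefSeq's annotation of GRCh38.p14. PRPF8 (positions 1650629 to 1684867) and EFTUD2 (44849948 to 44899445) are on chromosome 17, and SNRNP200 is on chromosome 2 (96274338 to 96305546). PRPF6 is on chromosome 20 (63981132 to 64033100), PRPF31 on chromosome 19 (54115754 to 54131713) and PRPF4 on chromosome 9 (113275658 to 113292905). PRPF3 is on chromosome 1 (150321468 to 150353233), SART1 on chromosome 11 (65961734 to 65980137) and DDX23 on chromosome 12 (48829756 to 48852163).

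RefSeq promoter windows matched 8 of the 9 genes, and PRPF3 had no entry. The 250 bases before the annotated start are shown for PRPF6, PRPF31 and PRPF4, which were called higher at 5 CPM or more, and for PRPF8 and SNRNP200, which kept a fixed proportion to each other. Each is written 5' to 3' on the gene's strand, and the start used by the listed transcript may differ. Capitals mark every match, on either strand, to CCGGAAG (a form of the site bound by ETS factors) or GGGCGG (the GC box). They also mark, on either strand, CCAAT (the CCAAT box) and TATAAA (the TATA box). Only these exact letters were searched, and other forms of the sites were not. No marked matches of different motifs overlap in these windows. The windows lie at chr20:63980882-63981131 (plus strand) for PRPF6, chr19:54115504-54115753 (plus) for PRPF31, chr9:113275408-113275657 (plus) for PRPF4, chr17:1684868-1685117 (minus) for PRPF8 and chr2:96305547-96305796 (minus) for SNRNP200.
PRPF6: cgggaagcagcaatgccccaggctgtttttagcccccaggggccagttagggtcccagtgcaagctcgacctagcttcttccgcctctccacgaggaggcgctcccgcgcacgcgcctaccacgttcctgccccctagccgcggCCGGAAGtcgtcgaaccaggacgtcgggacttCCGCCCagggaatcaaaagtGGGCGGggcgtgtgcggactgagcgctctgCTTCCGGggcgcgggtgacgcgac
PRPF31: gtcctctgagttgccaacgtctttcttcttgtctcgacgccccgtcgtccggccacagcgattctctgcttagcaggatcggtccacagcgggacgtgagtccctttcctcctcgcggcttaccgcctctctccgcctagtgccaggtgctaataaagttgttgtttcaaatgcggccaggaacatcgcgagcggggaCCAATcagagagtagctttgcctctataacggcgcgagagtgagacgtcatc
PRPF4: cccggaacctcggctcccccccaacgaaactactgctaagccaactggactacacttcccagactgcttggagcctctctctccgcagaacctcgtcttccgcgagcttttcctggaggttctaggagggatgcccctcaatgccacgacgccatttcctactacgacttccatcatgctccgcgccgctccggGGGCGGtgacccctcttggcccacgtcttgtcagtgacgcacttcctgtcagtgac
PRPF8: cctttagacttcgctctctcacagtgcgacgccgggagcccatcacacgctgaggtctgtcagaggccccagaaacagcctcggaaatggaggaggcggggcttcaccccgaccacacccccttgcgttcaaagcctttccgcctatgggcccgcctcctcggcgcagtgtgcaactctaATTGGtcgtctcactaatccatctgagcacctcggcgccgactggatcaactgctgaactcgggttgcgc
SNRNP200: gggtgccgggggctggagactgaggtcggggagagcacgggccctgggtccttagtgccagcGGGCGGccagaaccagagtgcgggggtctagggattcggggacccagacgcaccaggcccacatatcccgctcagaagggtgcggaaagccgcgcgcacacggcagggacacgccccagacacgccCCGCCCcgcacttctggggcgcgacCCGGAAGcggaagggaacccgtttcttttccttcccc

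The 3 genes called higher did not share a motif of this set. PRPF6 held CCGGAAG at 2 places and GGGCGG at 2 places, PRPF31 held CCAAT alone, and PRPF4 held GGGCGG alone. PRPF8 held CCAAT alone, while SNRNP200 held CCGGAAG once and GGGCGG at 2 places, so the pair that kept a fixed proportion did not share one either. Over the 8 genes CCGGAAG was found in 3 (SNRNP200, PRPF6 and SART1), GGGCGG in 5, CCAAT in 3 and TATAAA in 0. Among all 35116 windows of that length the shares were 8.52%, 42.6%, 32.0% and 10.7% in the same order. These shares count single windows, while a member gene counted if any of its windows held the motif. EFTUD2 had 2 windows, and only the second held GGGCGG. A match describes the letters in the window and is no evidence of binding. The GC content of the shown windows was 57.2% for PRPF31, 60.4% for PRPF4, 61.2% for PRPF8, 68.0% for PRPF6 and 70.0% for SNRNP200, against a median of 58.0% over all windows.

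Over all 25 settings of the analysis the direction was the same for 7 members. PRPF6 ran from 0.37 to 0.56 on the log2 scale, PRPF31 from 0.32 to 0.51, PRPF4 from 0.31 to 0.51, DDX23 from 0.19 to 0.31 and SART1 from 0.12 to 0.27. PRPF8 and SNRNP200 ran from -0.28 to -0.14. PRPF3 lay on both sides of 0, from -0.05 to 0.08, and EFTUD2 from -0.03 to 0.35.

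**Figure D4:**
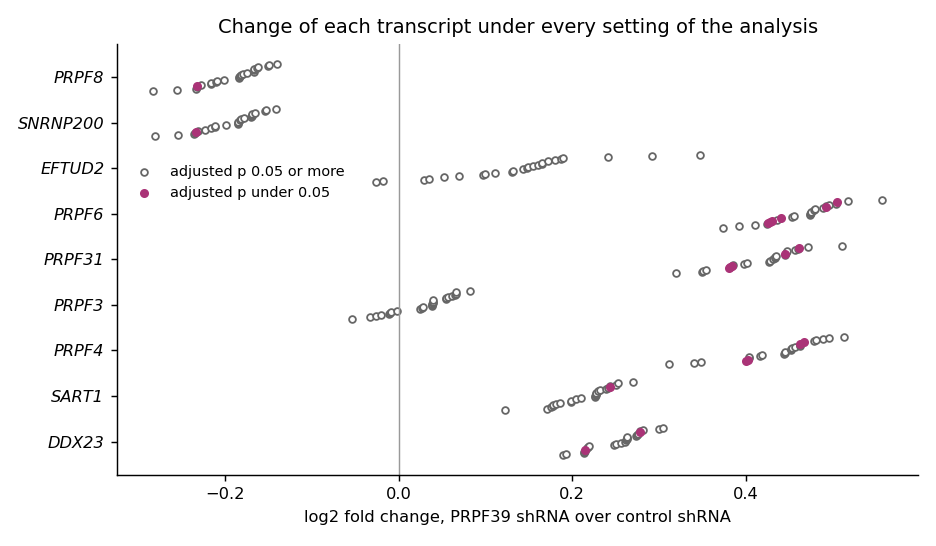
Log2 fold change of PRPF39 shRNA over control shRNA (horizontal axis) for each member under 25 settings, 1 point per setting, sorted within a member. Filled points have an adjusted p under 0.05. PRPF3 and EFTUD2 are the members with points on both sides of 0.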

How the data were processed

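Per the file headers, the authors deposited for each library 1 table with length, effective length, TPM and estimated counts for 203028 transcripts. Build hg38 and the tools Salmon 0.11.1, STAR 2.7.9a, cutadapt 2.1 and DESeq2 1.32.0 are named in the submitters' processing notes; options and annotation release are not given in the sources used here. The pairing of the 9 transcripts with genes came with the list of members. Members and lists were chosen with earlier results of these data known. Estimated counts were rounded and fitted for all transcripts with edgeR 4.0.16 (R 4.3.3): filterByExpr with a minimum count of 10, TMM, quasi-likelihood test of group, Benjamini-Hochberg adjustment, threshold 0.05. Standard errors are the fold change over the square root of F. Alternatives were other normalizations and filters, DESeq2 1.42.0, limma 3.58.1 (voom, and log2(TPM + 1) or log2(TPM + 0.1) at a mean TPM of at least 1), effective-length offsets, a replicate block and each library left out. DESeq2 at 5 CPM was added after the data were seen. All members were named, with the 2 transcripts of most similar profile. Other tri-snRNP genes planned for counting were not analysed here, because no table used pairs them with transcripts. No library was a copy of another (chi-square per degree of freedom at least 29.2).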

Additional observations from a re-analysis of the deposited data

How the results depend on the processing

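Of 216 values of single members under the alternatives, 186 kept their direction and stayed above the threshold, 20 kept it and were called, and 10 reversed. The number of members called over all transcripts was 0, with 7 at an unadjusted p under 0.05 (edgeR), and was 3 with a mean of at least 5 CPM, 5 with DESeq2, 6 with DESeq2 at 5 CPM, and 2 with the replicate block at 5 CPM, where PRPF4 was lost (adjusted p = 0.0677, edgeR); without the 5 CPM filter the replicate block called 0 of all 97571 transcripts, so its 0 says nothing of the members. Leaving out each library gave 0 over all transcripts, where such fits called 0 to 22 transcripts in all, and 0 to 3 at 5 CPM, against 3 with all libraries (3 and 1 without control and PRPF39 shRNA replicate 1, and 0 without any other). The median log2 fold change of 0.227 ran from 0.204 to 0.300 (0.123 to 0.249 at 5 CPM) when a library was left out. The summed member TPM ratio of 1.04 ran from 0.979 to 1.13 without a library and was 0.963 in CPM. PRPF3 reversed to -0.011 at 5 CPM, -0.01 with the replicate block at 5 CPM, -0.009 with DESeq2 at 5 CPM, and, without control replicate 1, to -0.001 over all transcripts; at 5 CPM it was -0.054 and -0.026 without control replicates 1 and 2, and -0.02 and -0.033 without PRPF39 shRNA replicates 2 and 3. Over all fits without a library PRPF3 ran from -0.054 to 0.067. EFTUD2 reversed to -0.026 without control replicate 2 and -0.018 without PRPF39 shRNA replicate 2, both at 5 CPM. The cause was not tested. Replicate numbers were not taken as pairs, since the sample labels give no batch. Deviations of same-numbered libraries correlated at 0.158, 0.0312 and 4.17e-05. Correlations between differently numbered libraries were not computed, so these values cannot decide whether the replicates were paired.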
